A study of Mus musculus with 564 samples.

Results

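Interleukin 4 (IL-4) left a lasting, stimulus-specific gain of H3K27ac at 1506 of the 59190 cis-regulatory elements (CREs) measured in mouse bone marrow-derived macrophages (BMDMs). H3K27ac is histone H3 acetylated at lysine 27, a mark of active promoters and enhancers. The 1506 CREs were chosen by their values in the libraries of cells pre-treated with DMSO, the vehicle. For each stimulus and time, the log2 difference was log2 of the mean of both DMSO libraries plus 5, minus the same quantity in the unstimulated DMSO libraries. Members had a mean of at least 30 normalized reads after 4 h of IL-4, a log2 difference of at least 1 at both 2 h and 4 h of IL-4, and a log2 difference between -1 and 1 at both 2 h and 4 h of lipopolysaccharide (LPS). Without the limit on LPS, 2994 CREs passed. Of these, 725 were also over 1 after LPS at both times and 222 were under -1 at both times. Another 541 crossed a limit at 1 time only or in opposite directions. Because these DMSO values made the choice, they are described below without a test, and the tests use the libraries that played no role in it.

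The study asked how 58 clinical kinase inhibitors (CKIs) alter the response of macrophages to opposite stimuli, with H3K27ac ChIP-seq as the readout. All cells were wild type BMDMs grown from young male C57/BL6 mice, and all were pre-treated for 1 h, either with DMSO or with 1 CKI at a concentration of its own. They then stayed unstimulated or received LPS, a bacterial ligand of TLR4, or IL-4, each at 10 ng/mL, for 30 min, 1 h, 2 h or 4 h. The DMSO groups (unstimulated, and 4 times for each stimulus) had 2 libraries each, R1 and R2, 18 in all. The CKIs gave 546 libraries, mostly 1 for each compound, stimulus and time. GEO's treatment label gives 4 h for unstimulated cells, whereas their titles give 0 h. Another 36 of the CKI libraries carry the letter b after the title of an earlier library, of unstated meaning, and each such pair was averaged. The labels do not say that R1 and R2 came from separate cultures, so p-values of DMSO tests measure the spread between these libraries, which may be technical. In tests of CKI libraries the p-values measure the spread between different compounds, which stand in for replicates.

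Estimated reads in CREs ranged from 2345119 to 6270849 in 17 of the 18 DMSO libraries and from 344915 to 8358460 in 541 of the 546 CKI libraries. The remaining libraries gave no estimate. The ratio of the median value of strong CREs to that of weak CREs, a measure of contrast between signal and background, was 53 to 134 in DMSO libraries and 3.34 to 67.2 in CKI libraries. All tests of CKI libraries were therefore made among CKI libraries, without DMSO. Of 7 macrophage marker genes, 3 had a CRE within 1 kb of their start, and those of Itgam, Lyz2 and Mertk held means of 636, 647 and 226 normalized reads in unstimulated DMSO cells. Of 17 marker genes of other cell types, 2 had such a CRE, with 3.5 reads at Col1a1 and 7 at Flt3. In such bulk libraries, more acetylation per cell and more cells with the acetylated CRE cannot be told apart.

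IL-4 binds a receptor built from the IL-4 receptor alpha chain and a partner chain, whose attached Janus kinases (JAKs) phosphorylate the transcription factor STAT6. Phosphorylated STAT6 dimerizes, enters the nucleus and binds palindromic sites in which TTC and GAA are separated by 4 bases. A second branch runs from the receptor through the adaptor IRS2 to PI3 kinase, AKT and mTOR. In macrophages IL-4 is known for the alternatively activated state, marked by arginase 1, the mannose receptor, chemokines of type 2 immunity and members of the ribonuclease A family. LPS drives the opposite, inflammatory state through NF-kB, AP-1 and interferon regulatory factors.

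The central 300 bp of 9 members are printed below, from the plus strand of mouse GRCm38.p6 (mm10), because the STAT6 letters TTCNNNNGAA, where N is any base, differed most in share between members and all CREs among the motifs searched. Capitals mark each match on either strand, since the motif reads the same on both. The first 3 belong to the 12 members with the largest IL-4 gain: an intergenic CRE 13593 bp from the start of the predicted gene Gm8113 (window chr14:43938833-43939132), an intergenic CRE 10316 bp from the start of the angiogenin gene Ang5 (chr14:43967235-43967534), and an intronic CRE of the sialyltransferase gene St8sia1 (chr6:142957464-142957763). The next 4 lie at genes linked to alternative activation or to IL-4 receptor signalling: an intergenic CRE 16929 bp from Vwf (chr6:125529695-125529994), an intergenic CRE 22247 bp from Flt1 (chr5:147748108-147748407), an intronic CRE of Pik3cd (chr4:149662294-149662593), and an intronic CRE of Mrc1 (chr2:14275872-14276171). The last pair, intergenic CREs near Arg1 (chr10:24961121-24961420) and Batf3 (chr1:191095033-191095332), had no match in this window and are shown for contrast.
Gm8113 CRE: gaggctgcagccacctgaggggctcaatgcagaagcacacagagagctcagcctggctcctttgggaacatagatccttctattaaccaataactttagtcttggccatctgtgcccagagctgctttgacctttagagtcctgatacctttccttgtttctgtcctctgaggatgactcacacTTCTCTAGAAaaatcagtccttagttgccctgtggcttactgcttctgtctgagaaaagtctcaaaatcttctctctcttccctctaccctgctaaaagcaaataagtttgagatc
Ang5 CRE: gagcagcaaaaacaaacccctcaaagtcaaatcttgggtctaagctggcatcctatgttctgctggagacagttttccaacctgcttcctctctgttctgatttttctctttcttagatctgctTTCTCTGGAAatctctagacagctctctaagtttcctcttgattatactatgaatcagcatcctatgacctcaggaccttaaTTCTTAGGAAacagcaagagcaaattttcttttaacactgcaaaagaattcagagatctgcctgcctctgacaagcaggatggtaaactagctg
St8sia1 CRE: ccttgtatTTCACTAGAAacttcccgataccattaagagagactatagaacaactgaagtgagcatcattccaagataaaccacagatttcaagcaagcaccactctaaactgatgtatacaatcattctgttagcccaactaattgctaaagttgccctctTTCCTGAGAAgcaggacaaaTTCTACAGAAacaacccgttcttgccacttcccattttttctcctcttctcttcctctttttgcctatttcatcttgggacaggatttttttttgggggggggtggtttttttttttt
Vwf CRE: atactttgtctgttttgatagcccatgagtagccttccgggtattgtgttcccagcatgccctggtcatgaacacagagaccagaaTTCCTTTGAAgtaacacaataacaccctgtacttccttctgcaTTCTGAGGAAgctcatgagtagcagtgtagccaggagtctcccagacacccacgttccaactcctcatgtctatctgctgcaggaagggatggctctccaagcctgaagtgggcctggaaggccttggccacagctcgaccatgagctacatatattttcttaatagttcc
Flt1 CRE: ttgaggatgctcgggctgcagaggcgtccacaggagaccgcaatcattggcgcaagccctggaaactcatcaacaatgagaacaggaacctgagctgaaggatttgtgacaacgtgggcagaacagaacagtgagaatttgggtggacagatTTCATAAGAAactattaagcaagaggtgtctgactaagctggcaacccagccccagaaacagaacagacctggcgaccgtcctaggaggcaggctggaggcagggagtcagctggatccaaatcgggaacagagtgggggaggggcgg
Pik3cd CRE: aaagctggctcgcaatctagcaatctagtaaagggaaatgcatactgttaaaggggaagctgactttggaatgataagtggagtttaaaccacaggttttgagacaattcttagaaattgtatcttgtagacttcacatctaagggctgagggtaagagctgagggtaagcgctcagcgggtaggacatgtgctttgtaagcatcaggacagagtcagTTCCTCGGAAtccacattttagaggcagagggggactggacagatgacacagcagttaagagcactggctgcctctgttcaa
Mrc1 CRE: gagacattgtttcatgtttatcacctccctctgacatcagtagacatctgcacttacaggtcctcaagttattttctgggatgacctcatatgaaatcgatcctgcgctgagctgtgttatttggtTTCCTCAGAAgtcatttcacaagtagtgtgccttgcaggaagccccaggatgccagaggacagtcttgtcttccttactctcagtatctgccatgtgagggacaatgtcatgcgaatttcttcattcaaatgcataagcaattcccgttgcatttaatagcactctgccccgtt
Arg1 CRE: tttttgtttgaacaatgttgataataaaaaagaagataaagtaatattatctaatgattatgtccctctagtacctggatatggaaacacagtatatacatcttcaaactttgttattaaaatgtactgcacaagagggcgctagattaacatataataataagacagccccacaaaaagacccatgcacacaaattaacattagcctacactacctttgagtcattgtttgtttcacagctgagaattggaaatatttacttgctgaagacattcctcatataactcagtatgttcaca
Batf3 CRE: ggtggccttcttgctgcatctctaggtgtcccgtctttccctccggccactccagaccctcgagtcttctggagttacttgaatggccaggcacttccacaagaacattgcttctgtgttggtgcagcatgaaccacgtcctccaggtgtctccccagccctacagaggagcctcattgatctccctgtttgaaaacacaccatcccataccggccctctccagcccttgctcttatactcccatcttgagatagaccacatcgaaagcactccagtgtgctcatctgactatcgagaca

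The St8sia1 window held 3 matches and the Ang5 and Vwf windows 2 each, and the 4 other windows with a match held 1. In the whole set, 617 of 1506 members (41.0%) had a STAT6 match in the central 300 bp, beside 9.22% of all CREs. Among CREs with a centre over 1 kb from a protein-coding start, the shares were 42.5% of the members and 10.1% of all. The matches sat near the middle of the CREs: 36.3% of members had one within 100 bp of the centre and 7.24% had one at 500 to 600 bp, whereas the corresponding shares of all CREs were 6.74% and 5.39%. The share was 34.1% in the 725 CREs that also gained after LPS and 32.4% in the 222 that lost signal after LPS. A match is a description of the letters and not evidence of binding.

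**Figure D1:**
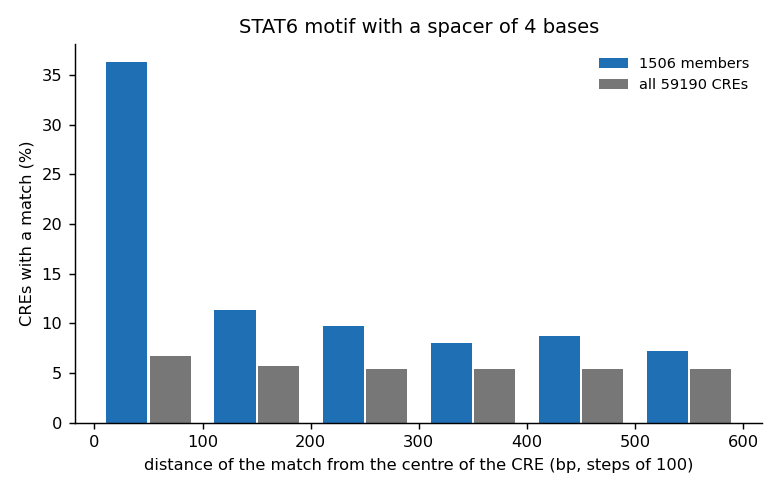
Share of CREs (%) with the letters TTCNNNNGAA in each step of 100 bp away from the centre of the CRE, for the 1506 members and all 59190 CREs. The bars of the members fall from 36.3% in the first step to 7.24% in the last, and those of all CREs from 6.74% to 5.39%.

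The other motifs searched in the same window, on both strands, differed less. The STAT motif with a spacer of 3, TTCNNNGAA, was present in 14.9% of members, 9.40% of all CREs and 21% of the CREs that gained after both stimuli. The core of PU.1 (GAGGAAGT), the lineage factor of macrophages, was present in 10.6% of members and 9.11% of all CREs. AP-1 letters (TGANTCA) were present in 21% and 20.2%, the nuclear receptor letters AGGTCA in 18.5% and 18.1%, and the MYC E-box CACGTG in 5.58% and 5.66%. EGR letters (GTGGGCG) were found in 2.06% of members and 4.05% of all CREs, with shares of 1.5% and 2.17% over 1 kb from a start. The GC content of the window had a median of 45.7% in members and 48.3% in all CREs.

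In unstimulated DMSO libraries the members carried little acetylation, with a median of 20.5 normalized reads. The 10th and 90th percentiles of the member means were 6 and 99.5, and 340 members (22.6%) had a mean under 10, beside 23.4% of all CREs. After 4 h of IL-4 the median was 109 reads, and after 4 h of LPS it was 21.5. Between the 2 libraries of a group, the median absolute log2 difference was 0.25 in unstimulated cells and 0.17 after 4 h of IL-4.

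Times that the choice did not use showed that the gain was early. At 30 min of IL-4 the median log2 difference from unstimulated was 1.64, with quartiles of 1.14 and 2.21. By then 1236 members (82.1%) were already at or over 1, beside 9.91% of all CREs. The medians at 1 h, 2 h and 4 h were 1.78, 1.86 and 1.89. These times share the unstimulated libraries with the choice of members, so the values are a description. After LPS the member medians were 0.06, 0.09, 0.10 and 0.03 at the 4 times, and the medians of all CREs after IL-4 were 0.10, 0.03, -0.03 and 0.05.

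**Figure D2:**
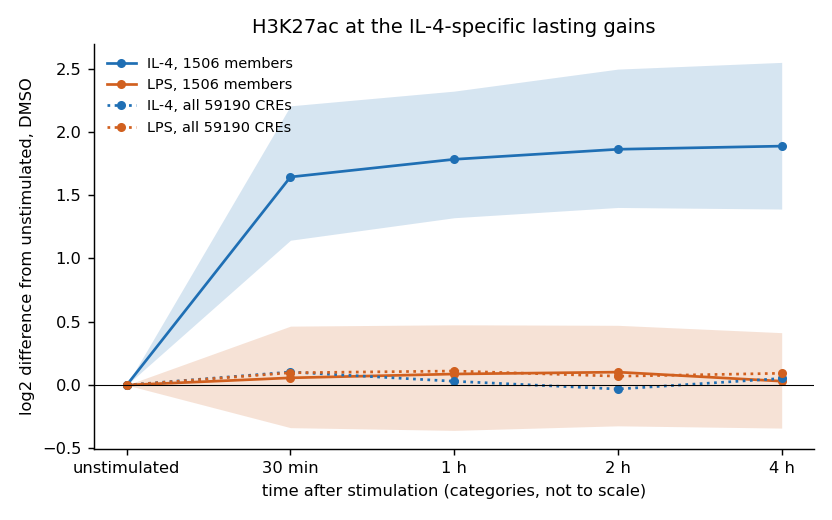
Log2 difference from unstimulated cells in DMSO libraries (vertical axis) at the 4 times after IL-4 or LPS (horizontal axis, times as categories, with unstimulated cells at 0). Solid lines are medians of the 1506 members with shaded quartiles, and dotted lines are medians of all 59190 CREs. The IL-4 line of the members stands at 1.64 by 30 min and at 1.89 by 4 h, while the LPS line lies between 0.03 and 0.10 at these times.

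As a description of the same DMSO means, the highest mean fell at 4 h in 640 members (42.5%), at 2 h in 420, at 30 min in 285 and at 1 h in 161. Members with their highest mean at 30 min had a median log2 difference of 2.12 at that time and of 1.5 at 4 h. Those with their highest mean at 4 h went from 1.44 at 30 min to 2.29 at 4 h, and started from a lower unstimulated level (median 14.5 reads, beside 32.5). Because the choice limited LPS at 2 h and 4 h only, some members also had an early LPS difference. At 30 min of LPS 104 members (6.91%) were at or over 1, beside 16.0% of all CREs. At or under -1 were 90 members, beside 7099 of all 59190 CREs. At 1 h 112 members (7.44%) were at or over 1, beside 18.7% of all CREs, and 60 were at or under -1, beside 8236 of all CREs.

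Egr2, a zinc finger transcription factor induced by IL-4, had high early values after both stimuli at its promoter. The promoter CRE (chr10:67534582-67540056, centred in an Egr2 intron 550 bp from an annotated start) held 211 and 219 reads in unstimulated cells and 543 and 574 after 4 h of IL-4. At 30 min it held 737 and 743 reads after IL-4 and 754 and 759 after LPS. At 4 h of LPS it held 168 and 209. The IL-4 libraries were thus just below the LPS libraries at 30 min and well above them at 4 h. In the test at 30 min the IL-4 value minus the LPS value was -0.03 ± 0.10 (log2, SE, n = 2 libraries per group, limma adjusted p = 0.819). The intergenic CRE 167252 bp from Igf1 behaved alike, with 187 and 198 reads at 30 min of IL-4, 183 and 252 at 30 min of LPS, and 207 and 222 against 102 and 66 at 4 h.

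The 12 members with the largest log2 difference at 4 h of IL-4 lay between 4.59 and 6.06 on this scale. The Gm8113 CRE (chr14:43938163-43939804) held 7 and 2 reads in unstimulated cells. It held 135 and 155 reads at 30 min of IL-4, 247 and 280 at 1 h, 408 and 425 at 2 h, and 681 and 578 at 4 h. After 4 h of LPS it held 2 and 3. The Ang5 CRE (chr14:43966528-43968242) went from 5 and 7 reads to 740 and 714 at 4 h of IL-4, with 3 and 10 at 4 h of LPS. Both were ranked by these values, so their distance from the unstimulated libraries is a description. Of the 12 members, 5 lay on chromosome 14. Of these, 1 each was nearest to the ribonuclease A family genes Ang5, Ang2 and Ang6, and 2 were nearest to the predicted gene Gm8113. The Gm8113 CRE described here lay 15424 bp from the start of Ear10, an eosinophil-associated ribonuclease gene.

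**Figure D3:**
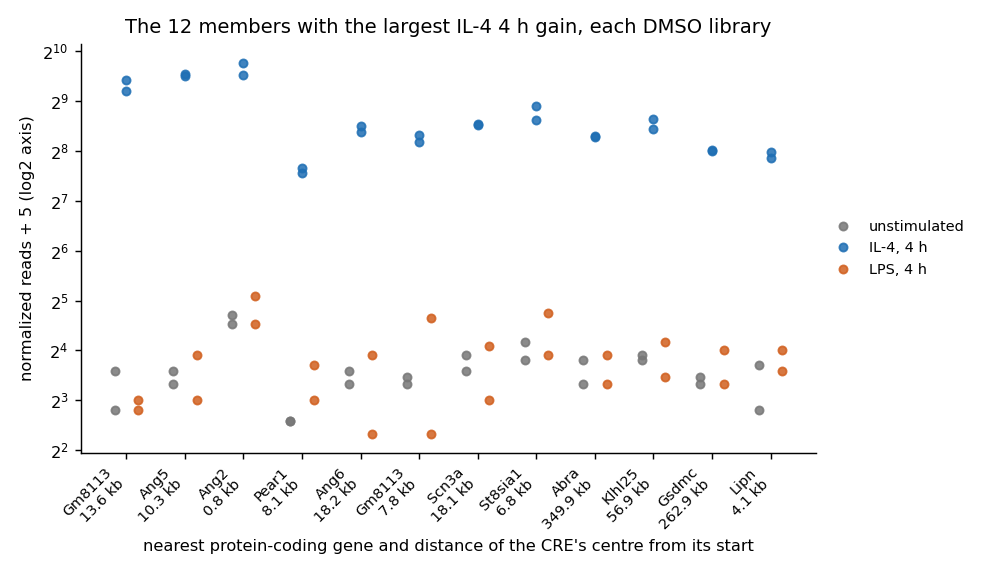
Normalized reads plus 5 (log2 axis) in each DMSO library for the 12 members with the largest log2 difference at 4 h of IL-4, named by the nearest protein-coding gene and the distance to its start. Each point is 1 of 2 libraries of unstimulated cells, IL-4 at 4 h or LPS at 4 h. Every IL-4 point stands above every other point of the same CRE, for instance 681 and 578 reads against 7, 2, 2 and 3 at the CRE 13.6 kb from Gm8113.

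Sequence repeats touch these chromosome 14 values. In the Gm8113 CRE 43.7% of the 51-base words occur elsewhere in the genome, and in the Ang5 and Ang6 CREs 16.3% and 16.4% do, so reads may have been shared with near copies and these values are uncertain. Among all members, 104 had over 10% of such words and the median was 0.06%. Members of the top 12 with almost no repeated words had gains of the same order. The St8sia1 CRE (chr6:142956715-142958513, 1.14% repeated), in an intron of the gene for a ganglioside sialyltransferase, went from 9 and 13 reads to 472 and 385 at 4 h of IL-4, with 22 and 10 at 4 h of LPS. It already held 304 and 270 reads at 30 min of IL-4. The Scn3a CRE (chr2:65548522-65550247, no repeated words), in an intron of a sodium channel gene, went from 7 and 10 reads to 366 and 360.

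Members close to the threshold were modest. The 3 members just inside it, nearest to Zfp622, Zfp407 and Prune2, had a log2 difference of 1.00 at 4 h of IL-4. The 3 CREs just outside it, nearest to Tiam1, Slc39a6 and St6galnac2, had the same value after rounding. The Zfp622 CRE held 22 and 17 reads in unstimulated cells and 45 and 43 at 4 h of IL-4, and the Tiam1 CRE held 143 and 141 against 281 and 297. Both sets of values lie on the limit of 1 itself, so the Tiam1 CRE was left out only by the precision of the computation.

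The first independent comparison set IL-4 against LPS in the 8 DMSO libraries at 30 min and 1 h, which had no part in the choice. At 30 min, 1080 of the 1506 members were higher after IL-4 than after LPS, at a limma adjusted p under 0.01 and a log2 difference over 1. The same call was made for 16.6% of all CREs tested. Only 3 members were called lower, beside 12.1% of all CREs. At 1 h, 1174 members were higher, beside 16.4% of all, and 1 was lower, beside 17.6% of all. Of the 1506 members, 1499 reached the mean of 10 reads needed to be tested. The median member difference was 1.62 at 30 min and 1.76 at 1 h, while all CREs had medians of 0.11 and 0.03.

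The CRE 14513 bp from Selplg, the gene of a selectin ligand, was lower at both times, and was singled out after its values were seen. It held 14 and 16 reads at 30 min of IL-4 and 36 and 46 at 30 min of LPS, a difference of -1.19 ± 0.32 (adjusted p = 0.00244). At 30 min the 2 others called lower, likewise named after the fact, were an intronic CRE of Ppfibp1 (51 and 63 reads after IL-4, 112 and 136 after LPS) and an intergenic CRE 66398 bp from Zc3h12c (15 and 2 against 20 and 30). At the members shown above the difference went the other way. The St8sia1 CRE was higher by 3.81 ± 0.28 at 30 min and 4.29 ± 0.28 at 1 h, and the Flt1 CRE by 3.13 ± 0.17 and 1.88 ± 0.17 (SE, n = 2 per group).

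The second independent comparison used the CKI libraries, in which each compound gave 1 difference between IL-4 and unstimulated cells. Across 55 compounds at 4 h of IL-4, 911 of 1506 members (60.5%) rose at an adjusted p under 0.01 and a log2 difference over 1, beside 3.38% of all CREs. No member fell, beside 2.24% of all CREs, and 1501 members (99.7%) had an unadjusted limma p under 0.05, beside 60.3% of all. The median difference was 1.12, with quartiles of 0.82 and 1.56, while all CREs had a median of 0.06. The mean over compounds was above 0 at 1504 members, and 426 members (28.3%) were above 0 in every one of the 55 compounds, beside 1.72% of all CREs. Within the 6 runs of neighbouring columns of the deposited table, taken alone, 697 to 1039 members rose.

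Side by side and without a test, the median difference at 4 h of IL-4 was 1.89 in DMSO libraries and 1.12 in CKI libraries. The DMSO values had chosen the members, which raises them by construction, and the CKI libraries had a lower contrast. Selection, contrast and the inhibitors themselves cannot be told apart here. Across members both differences had r = 0.88, as a description over CREs that are not independent of each other.

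Earlier times in the CKI libraries told the same early course. At 30 min (58 compounds), 825 members rose, beside 3.73% of all CREs, with a median difference of 1.06. At 1 h, 985 rose, beside 4.08% of all, and at 2 h (56 compounds), 1018 rose, beside 3.8% of all, with medians of 1.22 and 1.20. In runs taken alone, 578 to 994 members rose at 30 min, 774 to 1116 at 1 h and 820 to 1143 at 2 h. These comparisons share the unstimulated libraries of each compound.

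At the Gm8113 CRE the unstimulated CKI libraries held 1 to 99 reads (median 17) and the IL-4 libraries at 4 h held 67 to 613 (median 378). It was higher in 55 of 55 compounds and rose by 3.94 ± 0.12 (SE, adjusted p = 5.35e-47). The Ang5 CRE rose by 3.87 ± 0.13 and the Ang6 CRE by 3.54 ± 0.10, and these were the 3 largest rises among the members. At the other end, an intergenic CRE 197391 bp from Gsdmc held 79 and 83 reads in unstimulated DMSO cells and 189 and 159 at 4 h of IL-4. In CKI libraries it was higher in 22 of 55 compounds, with a difference of -0.13 ± 0.10 (limma adjusted p = 0.279). The CREs nearest to Prss55 and Pak2 followed, at -0.02 ± 0.11 and 0.11 ± 0.06. At the Prss55 CRE the difference in CKI libraries was 0.80 ± 0.07 at 30 min, 0.39 ± 0.09 at 1 h and -0.04 ± 0.10 at 2 h, so that its value was highest at the first time sampled.

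**Figure D4:**
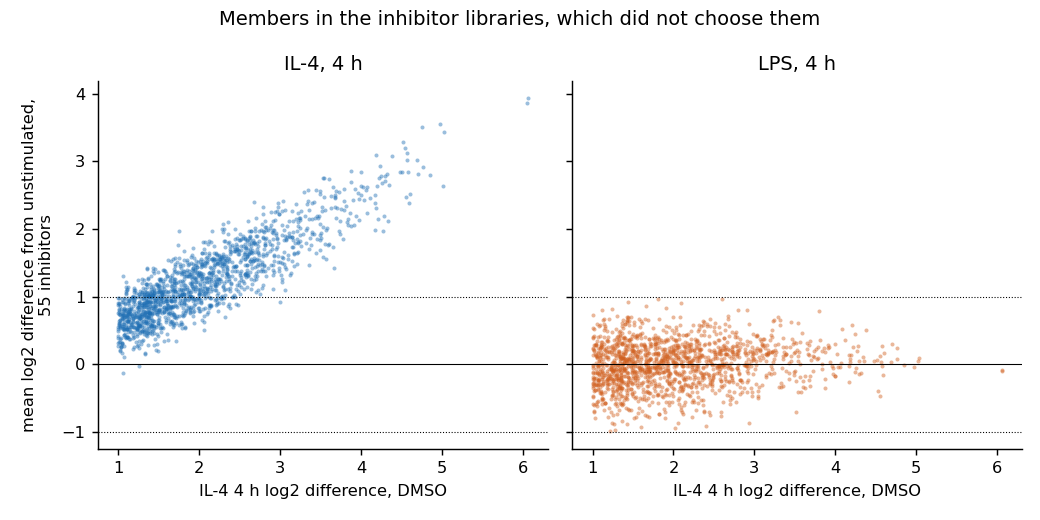
Mean log2 difference from unstimulated cells over 55 CKIs (vertical axis) after 4 h of IL-4 (left) or 4 h of LPS (right), against the log2 difference at 4 h of IL-4 in DMSO (horizontal axis). Each point is 1 member, and dotted lines mark differences of 1 and -1. The IL-4 points rise to 3.94 with a median of 1.12, and the LPS points lie between -0.98 and 0.96 with a median of 0.02.

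In CKI libraries the LPS differences of the members also stayed within the limit of 1. The IL-4 differences at 4 h were smaller there than in DMSO libraries at 1496 members. A count of 0 calls at this limit therefore does not show that a difference was absent. At 4 h of LPS (55 compounds), 0 of the 1503 members tested were called in either direction by limma, beside 10.3% of all CREs higher and 8.44% lower, and 759 members (50.5%) had an unadjusted p under 0.05, beside 71.0% of all CREs. The member differences had a median of 0.02 and ranged from -0.98 to 0.96. The 95% interval of the difference lay between -1 and 1 at 1483 members and between -0.5 and 0.5 at 912. In runs taken alone, between 4 and 56 members were called. Of the 725 CREs chosen for a gain after both stimuli, 465 (64.1%) rose after LPS in CKI libraries, and of 221 tested CREs chosen for a loss after LPS, 102 (46.2%) fell.

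IL-4 was set against LPS directly in the 52 compounds with both libraries at 4 h. Here 883 members were higher after IL-4, beside 9.01% of all CREs, and limma called 0 lower, beside 11.2% of all. An unadjusted p under 0.05 was reached by 1461 members (97.0%), beside 70.7% of all CREs. The median difference was 1.15, beside 0.03 over all CREs. In runs taken alone, 728 to 1056 members were higher. The Gm8113 CRE was higher in 52 of 52 compounds, by 3.97 ± 0.16.

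Members with a STAT6 match and members without one differed in these values too. The 617 with a match had a median unstimulated level of 14 reads, a median DMSO log2 difference of 2.21 and a median rise of 1.31 in CKI libraries, where 438 of them (71.0%) were called higher. The 889 without a match had medians of 26 reads, 1.70 and 1.04, and 473 (53.2%) were called higher. The share with a match was 61.5% among the 340 members with an unstimulated mean under 10 and 30.1% among the 339 with a mean of at least 50. The level therefore moved with the match, and the part of either was not tested.

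Most members lay away from promoters. Of the 1506, 772 (51.3%) were centred in introns, 654 (43.4%) between genes, 59 in untranslated regions and 21 in coding exons, by the GENCODE M21 annotation. The centre was over 1 kb from the nearest protein-coding start in 1402 (93.1%), beside 81.8% of all CREs, and the median distance was 24156 bp beside 15401 bp. The 104 members near a start had a lower median DMSO difference than the rest (1.37 and 1.92), a higher unstimulated level (56.8 and 19.5 reads) and a lower share of STAT6 matches (20.2% and 42.5%).

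About as many members stood alone as in company. No other member lay within 50 kb of 794 of them (52.7%), and 712 formed 268 groups of neighbours. Members alone had a STAT6 match in 49.4% and members in groups in 31.6%. The largest group held 16 members among 27 CREs over chr10:67594608-67749609, nearest to Ado and Zfp365 and 60633 to 213012 bp from the start of Egr2. Its members had DMSO log2 differences of 1.24 to 2.97, 14 of the 16 rose in CKI libraries, and 2 had a STAT6 match. The second group held 13 members among 21 CREs over chr5:147417746-147584957, nearest to Pan3 and Flt1, with differences of 1.64 to 2.92, and 6 of them rose. A group of 6 members among 7 CREs over chr14:51185004-51267102, at the ribonuclease genes Ang2, Ear14 and Rnase2a, had values from 3.72 to 5.03, and all 6 rose. Near Gsdmc, 7 members among 8 CREs over chr15:63539580-63612152 had differences from 1.06 to 4.60, and 5 of them rose.

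Single genes that were the nearest start of many members were Ado with 14 of its 30 CREs, Pan3 with 12 of 20, Gsdmc with 11 of 25, Dusp4, a phosphatase of MAP kinases, with 9 of 29, and P2ry1, an ADP receptor, with 7 of 12. In all, 1054 genes were nearest to a member, 7.05% of the 14960 genes nearest to any CRE. Nearness does not tell which gene a CRE acts on.

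For the lists that follow, a gene counted as having a member when it was the nearest start of one or lay within 100 kb of one, which held for 13.4% of the 21911 protein-coding genes of the annotation. CREs within 1 kb of a gene's start were tested in CKI libraries at 4 h of IL-4 as promoter CREs, of which 1.01% rose and 0.427% fell among 10762 over all genes. The lists were drawn up with earlier results of these data known.

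In the IL-4 receptor signalling list, 5 of 27 genes had a member, namely Irs2, Pik3r1, Pik3cd, Socs1 and Socs2. Promoter CREs rose at 4 of 24 genes and fell at none. The receptor-near kinases and STAT6 itself were not among them: the differences were 0.09 ± 0.07 at Jak1, 0.66 ± 0.04 at Jak2, 0.11 ± 0.04 at Jak3, 0.29 ± 0.05 at Tyk2 and -0.08 ± 0.03 at Stat6 (log2, SE over 55 compounds). The 4 genes with a rise were Pik3cd, which encodes the catalytic delta subunit of PI3 kinase, and the feedback inhibitors of cytokine signalling Cish, Socs1 and Socs2, by 1.87 ± 0.09, 1.82 ± 0.07, 1.44 ± 0.05 and 1.44 ± 0.08.

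At Pik3cd the gain was seen at only 1 of the CREs near its annotated starts, and use of the starts was not measured. The member (chr4:149661736-149663153), in an intron and 840 bp from an annotated start, held 11 and 12 reads in unstimulated DMSO cells, 123 and 100 at 4 h of IL-4, and 19 and 10 at 4 h of LPS. The other CREs at starts of Pik3cd had unstimulated means of 863 and 647 reads, and their differences in CKI libraries were -0.10 ± 0.04 and -0.04 ± 0.03, neither of which was called. At Socs1, a feedback inhibitor of JAKs, the promoter CRE held means of 263 reads unstimulated, 943 at 4 h of IL-4 and 1195 at 4 h of LPS, so it was no member. The member nearest to Socs1 lay 65468 bp away in an intron of Clec16a (chr16:10719278-10720858). It held 2 and 10 reads unstimulated, 148 and 145 at 4 h of IL-4 and 10 and 7 at 4 h of LPS. In CKI libraries it rose by 2.28 ± 0.11, and its LPS difference was 0.09. The member 12720 bp from Irs2, the adaptor that links the receptor to PI3 kinase, held 18 and 10, 165 and 161, and 14 and 12 reads in the same groups and rose by 1.88 ± 0.08, while the promoter CRE of Irs2 had a difference of 0.10 ± 0.07.

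Among 23 transcription factors linked to IL-4, 11 had a member, and promoter CREs rose at Egr2, Irf4, Batf3 and Nfil3 of 20 genes tested. Irf4 is a factor of alternative activation and Batf3 a basic leucine zipper factor of dendritic cells. The Egr2 promoter member rose by 1.41 ± 0.05 in CKI libraries, in 55 of 55 compounds. The member 3142 bp from Batf3 (chr1:191094394-191095973) held 14 and 14 reads in unstimulated DMSO cells, 158 and 186 at 4 h of IL-4 and 19 and 15 at 4 h of LPS, and rose by 2.04 ± 0.09. It belonged to a group of 6 members among 10 CREs, all 6 of which rose and none of which had a STAT6 match. The member with the largest gain nearest to Myc, a factor of cell growth, lay 821343 bp from a start of that gene (chr15:62807211-62810319). It held 16 and 16 reads unstimulated, 425 and 489 at 30 min of IL-4 and 303 and 318 at 4 h, against 37 and 16 at 4 h of LPS, and rose by 2.06 ± 0.10. A member at the start of Ppargc1b, a coactivator of oxidative metabolism, held 214 and 226 reads unstimulated and 482 and 471 at 4 h of IL-4. Its CKI difference was 0.81 ± 0.04, positive in 55 of 55 compounds and under the call's limit of 1.

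Of 32 genes of alternative activation, 16 had a member, among them Arg1, Mrc1, Mgl2, Flt1, Vwf, Tfec, Il1rl2 and Gatm. Promoter CREs of 8 of 19 genes rose (Arg1, Mgl2, Slc7a2, Flt1, Ptgs1, Pdcd1lg2, Il1rl2 and Matk), and those of Tgm2 and Stab1 fell, by 1.12 ± 0.06 and 1.06 ± 0.04 on the log2 scale. At Arg1, which encodes arginase 1, the promoter CRE was a member, with means of 132, 591 and 69.5 reads unstimulated and at 4 h of IL-4 and LPS, and rose by 1.65 ± 0.07. The member 33787 bp from the start (chr10:24960482-24962061) held 9 and 4 reads unstimulated, 103 and 100 at 4 h of IL-4, and 13 and 23 at 4 h of LPS. Its LPS difference of 1.00 sat on the limit of the rule. In CKI libraries it rose by 1.85 ± 0.10, with an LPS difference of 0.44, and was higher after IL-4 than after LPS by 1.39 ± 0.11. Flt1, a receptor of vascular growth factors, had 4 members. The one 22247 bp from its start (chr5:147747352-147749165) held 49 and 48 reads unstimulated, 399 and 427 at 4 h of IL-4 and 57 and 72 at 4 h of LPS, and rose by 1.85 ± 0.05. The promoter CRE of Flt1 was no member, with means of 31, 350 and 120 reads in these groups, and rose by 2.54 ± 0.08.

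Mrc1 encodes the mannose receptor and Mgl2 a lectin for galactose. The intronic member of Mrc1 (chr2:14275158-14276887) held 18 and 8 reads unstimulated, 80 and 106 at 30 min of IL-4, 59 and 65 at 4 h, and 6 and 8 at 4 h of LPS. In CKI libraries its difference was 0.99 ± 0.09, just under the limit for a call, in 52 of 55 compounds. The member 8863 bp from Mgl2, with 40.4% repeated words, held 18 and 18 reads unstimulated and 126 and 150 at 4 h of IL-4. It also held 104 and 90 reads at 30 min of LPS, and 29 and 23 at 4 h. The member 16929 bp from Vwf, the gene of a clotting protein, held 17 and 11, 153 and 152, and 17 and 5 reads unstimulated and at 4 h of IL-4 and LPS, and rose by 1.84 ± 0.09. The intronic member of Tfec, a transcription factor of the MiT family, held 39 and 37, 260 and 217, and 54 and 79, and rose by 1.35 ± 0.08. Several members at these genes did not reach the limit of 1 in CKI libraries: the differences were 0.50 ± 0.10 near Atp6v0d2, 0.54 ± 0.06 at Itgax, 0.65 ± 0.10 at Cdh1, 0.79 ± 0.10 at Il1rl2 and 0.81 ± 0.06 at Pdcd1lg2.

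Ribonuclease and angiogenin genes had a member more often than any other list, 11 of 14, though these genes lie close together, share members and, in the case of Rnase2a, also stand in the alternative activation list. The promoter CRE of Ang2 (chr14:51198773-51201106), itself a member, held 21 and 18 reads unstimulated, 866 and 725 at 4 h of IL-4, and 29 and 18 at 4 h of LPS. It rose by 3.43 ± 0.08 in CKI libraries, in 55 of 55 compounds. The member 26166 bp from Ear14, an eosinophil-associated ribonuclease gene, held 5 and 5, 254 and 214, and 5 and 0 reads and rose by 2.85 ± 0.11. The member 10187 bp from Rnase2a held 6 and 3, 169 and 194, and 6 and 2 reads and rose by 2.78 ± 0.11. Repeated words made up 3.28% of the Ang2 promoter CRE, and 19.9% and 21.9% of the other pair.

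Of 14 chemokine and cytokine genes of type 2 responses, 3 had one, and only the promoter CRE of Ccl24, an eosinophil chemokine, rose among 10 genes, by 1.58 ± 0.08. Of 18 lipid handling genes, 5 had a member and no promoter CRE of 15 rose or fell. The intronic member of Abcg1, a cholesterol exporter, held 38 and 20 reads unstimulated, 318 and 308 at 4 h of IL-4, and 54 and 44 at 4 h of LPS, and rose by 2.11 ± 0.07. Of 22 inflammatory genes induced by LPS, 3 had a member. One was the intronic CRE of Cd40, a co-stimulatory receptor, with 64 and 42, 212 and 229, and 78 and 43 reads, and it rose by 1.53 ± 0.06. The promoter CRE of Cd40 rose by 1.17 ± 0.05 and held a mean of 868 reads at 4 h of LPS.

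The CKIs were then compared with each other, on 1 response per compound: the mean log2 level at 2 h and 4 h of IL-4 minus the unstimulated level of the same compound. The median response of the members ranged from 0.70 to 1.66 over 53 compounds, with a median of 1.23. It was highest for ONO4059analogue (1.66), Refametinib (1.56) and Tofacitinib (1.54), and lowest for Volasertib (0.70), Afatinib (0.74) and Filgotinib (0.78). The median response over all CREs also differed, from -0.41 for Lapatinib to 0.36 for X396. It was 0.08, 0.00 and 0.07 for the 3 highest compounds and -0.35, -0.10 and 0.05 for the 3 lowest. The member responses were not adjusted for it, so their order holds for the unadjusted values only. The run of columns moved with the response, with run means from 1.05 to 1.40, and the contrast of the libraries differed, at 39.6 for ONO4059analogue and 11, 10.9 and 15.3 for the 3 lowest. Omipalisib had the lowest contrast, 8.2, with a median response of 1.22 at the members and 0.32 over all CREs. The part of run and contrast in these responses was not tested. Doses differed between compounds, so these values are given side by side.

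**Figure D5:**
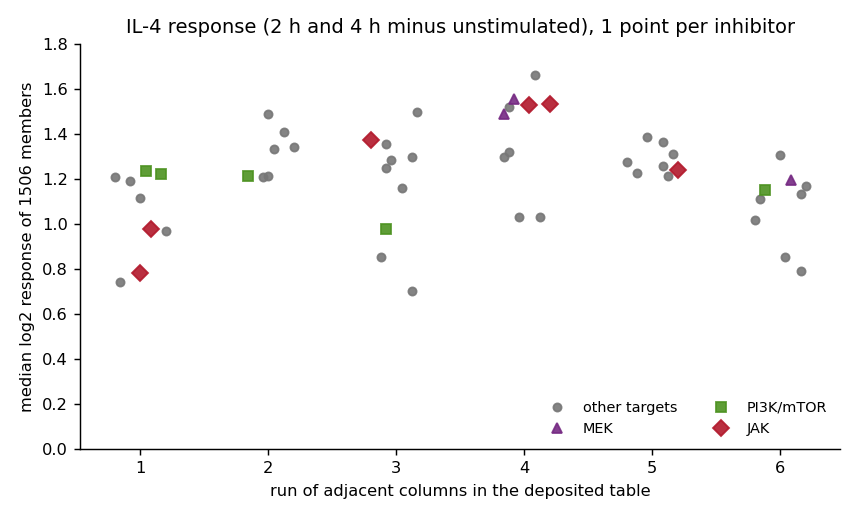
Median response of the 1506 members to IL-4 (mean of the log2 levels at 2 h and 4 h minus unstimulated, vertical axis) for each of 53 CKIs, by run of columns in the deposited table (horizontal axis, points shifted sideways for legibility). Marks distinguish 6 JAK, 5 PI3K/mTOR, 3 MEK and 39 other inhibitors. The JAK inhibitors spread from 0.78 to 1.54, within the range of 0.70 to 1.66 of all compounds.

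JAKs carry the IL-4 receptor signal to STAT6, and 6 of the compounds are JAK inhibitors. Their median member responses were 0.78 for Filgotinib, 0.98 for BMS911543, 1.24 for Ruxolitinib, 1.38 for Momelotinib, 1.53 for Pacritinib and 1.54 for Tofacitinib. They thus covered nearly the whole range of the panel. Against the 47 other compounds, with the run as a factor, limma called 0 members in either direction, beside 0 of all CREs. These others included TG100572 and Apitolisib, which the paper used at concentrations chosen for TYK2 and JAK1. Apitolisib was counted below among the PI3K/mTOR inhibitors. At an unadjusted p under 0.05 were 33 members (2.19%), beside 2.19% of all CREs. The median difference was 0.01 and the median 95% half-width 0.47, before adjustment over all CREs. Member differences ranged from -0.87 to 0.79 and none was called, so effects of even this size at single members could be missed here. The 5 lowest were -0.87 in an intron of Tab3, -0.74 at Spef2, -0.64 at Zcchc7, and -0.60 at both Prox2 and Mad2l1, each with an adjusted p of 1.00. At the Tab3 CRE, Filgotinib stood at -0.72 and the other 5 JAK inhibitors between 0.95 and 2.69, while the 47 other compounds ranged from -0.22 to 3.88.

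PI3K and mTOR lie on the second branch below the receptor. Under 5 inhibitors of PI3K/mTOR or mTOR, against 48 other compounds, 3 members had a larger IL-4 response, beside 0.0744% of all CREs, and 0 had a smaller one, beside 0.0254%. An unadjusted p under 0.05 was reached by 169 members (11.2%), beside 9.11% of all CREs. The 3 members were named after the test. An intronic CRE of Pdia4 (chr6:47804788-47806596), the gene of a protein disulfide isomerase of the endoplasmic reticulum, held 55 and 60 reads in unstimulated DMSO cells and 344 and 308 at 4 h of IL-4. Its response was 1.89 under AZD2014, 2.05 under Apitolisib, 2.47 under BGT226, 2.57 under PF04691502 and 2.65 under Omipalisib, and 0.78 to 2.39 (median 1.59) under the other compounds. Both ranges overlapped, and the difference was 0.89 ± 0.16 (adjusted p = 0.00453). The 2 others were an intronic CRE of Pgm5 (chr19:24702992-24705396, 30186 bp from Tmem252), with a difference of 0.93 ± 0.19 (adjusted p = 0.0196), and an intergenic CRE 12173 bp from Gm10073 (chr8:106560504-106562073), with 1.01 ± 0.23 (adjusted p = 0.0407). Without subtraction of the unstimulated level, none of these 3 members was called on the level after IL-4. The differences there were 0.28 at Pdia4, 0.22 at Gm10073 and -0.14 at Tmem252. The response is this level minus the unstimulated level, so most of the larger response at these members was a lower unstimulated level. On the level after IL-4, 13 members were called lower, beside 0.284% of all CREs, and 0 higher.

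Under 3 MEK inhibitors, which act outside the JAK branch, 0 members were called by limma against 50 other compounds, beside 0 of all CREs, and 58 members (3.85%) had an unadjusted p under 0.05, beside 2.35% of all. The median member difference was 0.14, beside 0.03 over all CREs, and it was 0.02 after quantile normalization.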

How the data were processed

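H3K27ac ChIP-seq of 564 BMDM libraries was analysed. The values are a score: read counts per CRE which the authors normalized, rounded and deposited, named here normalized reads. Tools and build listed in the submitters' processing notes are Bowtie, SAMtools and mm10. The members, gene lists and comparisons were chosen with earlier results of these data known. Values were transformed to log2(value + 5) and CREs with a mean of at least 10 were tested with limma 3.58.1 (R 4.3.3), with Benjamini-Hochberg adjustment over all CREs tested. Fold changes on this scale understate the change of CREs with low values. Stimulus comparisons used 1 difference per compound, and the DMSO comparison used 4 groups of 2 libraries with 1 estimate of spread. Calls needed an adjusted p under 0.01 and a log2 difference over 1, or 0.05 and 0.5 for inhibitor families, where the run of columns was a factor. Sequence and positions came from GRCm38.p6 with GENCODE M21, and distances are to the nearest protein-coding transcript start. Named CREs were the 12 with the largest DMSO difference, the member with the largest difference at each listed gene, the 3 largest and 3 smallest CKI differences, the 5 largest falls under JAK inhibitors and the 3 on each side of the threshold. Analyses used Python 3.11.15 with numpy 2.4.6 and pandas 2.3.3, and the fits were tested on simulated data. Alternatives changed the pseudocount, scaling, filter, thresholds, libraries and runs. Estimated reads are the total of a library divided by the spacing of its values.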

Additional observations from a re-analysis of the deposited data

Results flagged for a closer look

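Under PI3K/mTOR inhibitors, 3 members stood out because their IL-4 response differed from that under the other inhibitors in limma's test of the difference. The differences were 0.89 at the intronic CRE of Pdia4, 0.93 at the intronic CRE of Pgm5 nearest to Tmem252, and 1.01 at the CRE nearest to Gm10073 (log2, 5 against 48 compounds). At the Pgm5 CRE the response was 3.17 under AZD2014, 2.96 under PF04691502, 2.13 under BGT226, 2.01 under Apitolisib and 1.3 under Omipalisib, beside 0.51 to 2.45 under the other compounds. At the Gm10073 CRE the 5 responses ran from 1.42 to 3.14, beside 0.18 to 2.08. Each range overlapped that of the other compounds. On the level after IL-4, without subtraction, none of the 3 members was called. Most of each difference in response was a lower unstimulated level under these inhibitors.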

How the results depend on the processing

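Of 156 alternatives for the counts and shares, 137 stayed within 1.5 times the reported value or its spread and 19 moved. A log2 threshold of 0.5 gave 1422 members higher at 4 h of IL-4, beside 5717 of the 59128 CREs tested. It gave 1354 members at 30 min, 1336 for IL-4 against LPS at 4 h, and 197 called at 4 h of LPS. For LPS at 4 h, where the reported count was 0, a pseudocount of 1 gave 7, leaving out the libraries with the letter b gave 1, leaving out the compounds with the fewest estimated reads gave 3, and runs 1 to 6 alone gave 29, 23, 16, 44, 56 and 4. A pseudocount of 20 gave 543 members at 30 min of IL-4. For PI3K/mTOR inhibitors, quantile normalization left 1 member, and the level without subtraction gave 13, with the value nearest to Tmem252 reversed to -0.14. An LPS limit of 0.5 left 663 members, and the STAT6 share was 50.4% in the central 600 bp and 71.8% over whole CREs. The causes of these changes were not tested, except that wider windows and looser or tighter limits act by construction.

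Leaving out 1 library gave 953 to 1088 members higher after IL-4 than LPS in DMSO at 30 min, 1005 to 1182 at 1 h, and 1429 to 1609 members of the set. Leaving out 1 JAK inhibitor gave 0 in each case. Replicate numbers did not pair the libraries (correlations of deviations from -0.0847 to 0.0105), and with the replicate block 1081 and 1176 members were higher. Quantile normalization moved the median of all CREs at 30 min of IL-4 from 0.11 to -0.04. For single named members, 6363 of 6805 alternatives kept the call and direction, 232 lost a call, 209 gained one and 1 reversed. Less stable were the shares of the other motifs, of which 16 of 27 alternatives moved, and the DMSO difference of named members at 4 h of IL-4, of which 147 of 962 moved. With 1 library per compound and time and a contrast down to 3.34, the median 95% half-width at single members was 0.47 for JAK, 0.51 for PI3K/mTOR and 0.66 for MEK inhibitors.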
